A study of Mus musculus with 2 samples.

Results

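The cells described here were 192 mature dendritic cells from mouse bone marrow that had been cultured beside human mesenchymal stem/stromal cells (MSC). A rule on single-cell counts in the coculture library chose them. It asked for at least 500 genes and at most 10% mitochondrial molecules per barcode, at least 2 molecules of Ccr7, at least 2 of Fscn1, and fewer than 3 of the B cell genes Cd79a and Cd79b together. A molecule here is 1 unique molecular identifier (UMI), a tag that counts a captured transcript once. The 192 cells made up 6.39% (exact binomial 95% interval 5.54 to 7.32%) of the 3005 coculture cells that passed the barcode filter, and 4822 cells passed it in both libraries.

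The study compared myeloid cells formed from mouse femur marrow (strain C57BL/6NCrljOri, H-2b) with and without MSC, and 1 single-cell library was analysed for each. Both cultures received GM-CSF, a growth factor for granulocytes, macrophages and dendritic cells, at 40 ng/mL for 5 days. In the coculture, MSC sat in inserts with 0.4 µm pores at a ratio of 1 MSC to 5 marrow cells, after 24 h of incubation on their own. Viable cells were then sorted, in a CD11b-mid Ly6C-mid gate after coculture and in a CD11b-high Ly6C-high gate where MSC were absent. The protocols also name RPMI1640 for one culture and DMEM for the other, so coculture, sort gate, named medium and library cannot be told apart.

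Dendritic cells sample antigen in tissues and present it to T cells. When they mature they take up less, carry more costimulatory ligand, and switch on Ccr7, the receptor that guides them to lymph nodes. Fscn1 encodes fascin, which bundles actin in their long processes. Mature cells also carry ligands that restrain T cells, and much of the program runs through NF-kappaB, with c-Rel and RelA in its fast branch and RelB with p52 in its slow one.

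The values that chose the cells are given as a description. Ccr7 (chr11:99144196-99155077 on GRCm38, minus strand) had 2 to 54 UMIs per cell with a median of 15, and Fscn1 (chr5:142960343-142973185, plus strand) had 2 to 35 with a median of 5. Of the 192 cells, 33 had exactly 2 UMIs of either gene and 159 had 3 or more of both. Just outside the rule stood 50 cells with at least 1 UMI of each gene. In these 50 cells Ccl22 was at 788 CPM (counts per 1000000 UMIs, summed over the cells), Ccl5 at 2766 CPM and Cacnb3 at 466 CPM. In the 33 cells just inside, the same genes were at 707, 1331 and 549 CPM, so Ccl22 and Cacnb3 were close across the limit and Ccl5 was higher outside it. A further 45 cells had 2 or more UMIs of Ccr7 and none of Fscn1, with Ccl22 at 396 CPM, and 7 had 2 or more of Fscn1 and none of Ccr7, with Ccl22 at 23.8 CPM. All of these near misses count among the other coculture cells below.

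**Figure D1:**
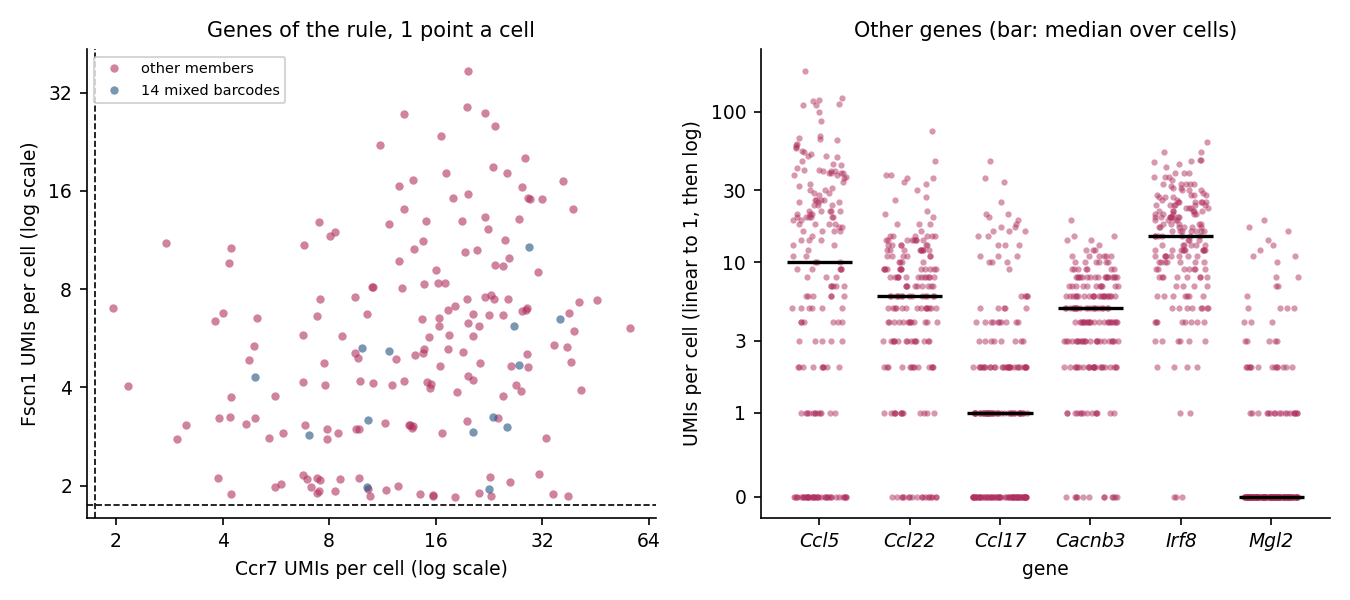
Left, UMIs of Ccr7 and Fscn1 in each of the 192 cells on log axes, with a small random shift so that points do not hide each other; dashed lines lie just below the 2-UMI limits, and blue points are 14 barcodes that also held 10 or more UMIs of a basophil, neutrophil or platelet gene pair. Right, UMIs per cell of 6 other genes with the median as a bar: Irf8 had a median of 15 UMIs and Mgl2 a median of 0.

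The 3 given markers that the rule did not use are also a description. They came with the label, with earlier results of these data known, so their direction is no independent evidence for it. Ccl5, a chemokine that draws T cells, was at 2704 CPM (2621 to 2789.6) in the 192 cells and 47.5 CPM in the other 2813 coculture cells. Ccl22, a ligand of the T cell receptor Ccr4, was at 1101 CPM (1048 to 1156) against 34.2 CPM. Cacnb3, a subunit of voltage-gated calcium channels, was at 663 CPM against 11.0 CPM. The log2 ratios of the 3 were 5.83, 5.01 and 5.91. A UMI of Ccl5 was found in 154 of the 192 cells, of Ccl22 in 174 and of Cacnb3 in 180. To set these shares beside free RNA in the droplets, each cell was thinned to 2000 UMIs, which left out 4 of the 192 cells, 261 of the others and 73 of 697 B cells (coculture cells picked by Ighd and Cd79 UMIs). Ccl5 was then seen in 69.1% of the mature dendritic cells and 0.160% of the B cells, Ccl22 in 71.3% and 1.12%, and Cacnb3 in 69.7% and 0.160%. Median depth before thinning was 7017.5 UMIs in the mature dendritic cells and 2900 in the B cells.

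The 192 cells held 1471742 of the 29089241 UMIs in kept coculture cells (5.06%), with 1447 to 40664 UMIs per cell and a median of 2297.5 genes. None of their barcodes occurred in the other library, which shared 4 barcodes with the coculture. Doublets were not removed. With 1 library per group, and cells that are not replicates, no test was run and 2-fold serves as a mark of size. Intervals cover counting error only, and they understate the error of genes whose UMIs sit in few cells. A gene was compared where it reached 10 CPM in either population, which lets a gene in through the side where it is high. Against the other coculture cells 8883 genes were compared: 1424 (16%) were higher by 2-fold or more in the mature dendritic cells, 2061 (23.2%) were lower by 2-fold or more, and the median log2 ratio was -0.15. Counts of listed genes against the other coculture cells are read beside these shares. The other cells are a mixture in which eosinophil markers summed to 24806 CPM, neutrophil markers to 14198 CPM and B lineage markers to 3520 CPM, so each ratio depends on that mixture.

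General dendritic cell genes were also present. Of 11 such markers all had at least 1 UMI, 9 reached the level set for comparison and these 9 were at least 2-fold higher than in other coculture cells. Of the 9, 3 reached that level only in the mature dendritic cells, which fixed the direction of their ratios. Against the B cells 5 of 10 compared were higher and 1 lower, and against the C1q-positive cells described below 7 of 11 and 2. The set summed to 27474 CPM in the mature dendritic cells, 22945 CPM in the B cells and 13965 CPM in the C1q-positive cells. Flt3, the receptor for the dendritic cell growth factor Flt3 ligand, was at 110.1 against 2.97 CPM. Zbtb46, a transcription factor of classical dendritic cells, was at 34.7 against 1.38 CPM. Cst3, the protease inhibitor cystatin C, was at 7762 against 1104 CPM and had a UMI in all 192 cells. Markers of other lineages that stood at 0 UMIs in the 192 cells included Ms4a1, Ighd, Pax5 and Ebf1 of B cells. Of 10 markers of plasmacytoid dendritic cells 5 were at 0, Siglech among them, which had 0 UMIs in the other cells too. The set summed to 1455 CPM against 504 CPM, of which Bst2, an interferon-stimulated gene, gave 1239 and Tcf4, a helix-loop-helix factor, 213 CPM in the mature dendritic cells. Of 13 T and NK cell markers 9 were at 0, and the B lineage set summed to 16.3 CPM against 3520 CPM in other cells. The rule limits the Cd79 genes, which left out 5 cells, so low levels of B lineage genes are no independent evidence.

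Some of the 192 barcodes carried transcripts of a second cell type. In 8 of them Prss34 and Mcpt8, proteases of basophils, summed to between 89 and 609 UMIs, while the next highest cell had 1. In 5, S100a8 and S100a9, calcium-binding proteins of neutrophils, summed to between 23 and 2243 UMIs, and the next highest had 5. In 6, the platelet chemokines Pf4 and Ppbp summed to between 10 and 262 UMIs, with 6 in the next. These were 14 barcodes in all, with a median of 15141.5 UMIs against 6831 in the remaining 178. Leaving out the barcodes of each pair took the basophil pair from 1910.0 to 18.6 CPM, the neutrophil pair from 2030 to 41.7 CPM and the platelet pair from 357 to 23.4 CPM. The eosinophil genes Prg2 and Epx showed no such barcodes: the highest cell had 5 UMIs, and their sum was 143 CPM against 1876 CPM in the B cells. Of the B cells, 4 had 10 or more UMIs of this pair, so these sums do not compare free RNA alone. Where leaving out the 14 moved a level of 10 CPM or more by over 1.5-fold, the level without them is given below.

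**Figure D2:**
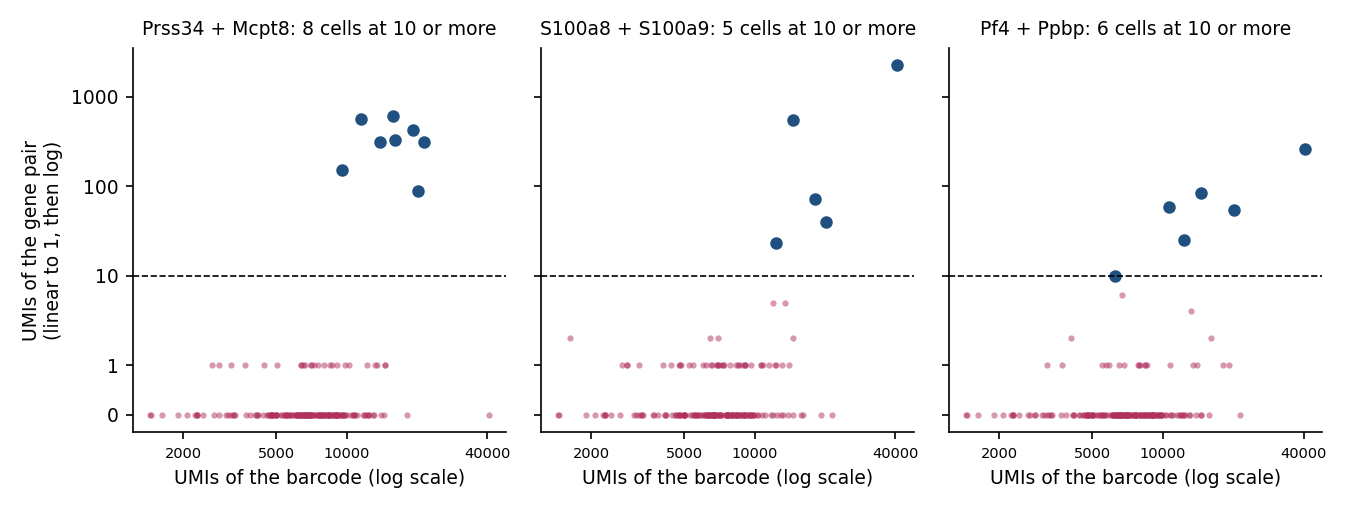
UMIs of 3 gene pairs that mark basophils, neutrophils and platelets (y axis, linear to 1 and then log) against all UMIs of the barcode (x axis, log) in the 192 cells, 1 point a cell. The 8, 5 and 6 large blue points at or above the dashed line of 10 UMIs are the mixed barcodes.

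Chemokines formed a high group and a group held by mixed barcodes. Of 26 listed genes 13 were compared, 4 of them 2-fold or more above and 7 as far below the level in other coculture cells. The 4 were Ccl5, Ccl22, Ccl17 and Cxcl16. Ccl17, the other Ccr4 ligand, was at 463 against 16.1 CPM (log2 4.84, interval 4.67 to 5.02). Cxcl16, a membrane-bound ligand of Cxcr6, was at 923 against 41.9 CPM (log2 4.46). Cxcl16 was the more even of these across cells, with a UMI in 190 of 192, whereas Ccl17 had one in 128. The 19 cells richest in a gene held 57.6% of Ccl17 UMIs, 42.1% of Ccl5 and 35.0% of Ccl22. Ccl5 ran from 0 to 187 UMIs per cell, Ccl22 from 0 to 74 and Ccl17 from 0 to 47. Ccl6, Cxcl2 and Pf4, which are made by neutrophils, macrophages and platelets among others, were at 1700.0, 141 and 304 CPM, each at least 2-fold lower than in other cells. Without the 14 mixed barcodes these 3 were at 32.2, 12.9 and 13.7 CPM, and the median log2 ratio of the list went from -1.08 to -4.21. Ccl19, a chemokine that binds Ccr7, had 0 UMIs in the 192 cells and in all kept coculture cells. The floor of 3 UMIs that stands in for 0 in ratios is 2.04 CPM in the 192 cells.

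Cxcl16 lies at chr11:70453983-70459984 on the minus strand and Zmynd15, a zinc-finger gene, at chr11:70459433-70466202 on the plus strand. The 2 genes overlap at their starts. How strand was used in counting is not given in the sources used here, so reads of one could have been counted for the other. Zmynd15 was at 734.5 against 13.9 CPM.

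Among receptors that place cells, Ccr7 is left out as a gene of the rule. Of the 28 listed genes 15 others were compared, 2 of them at least 2-fold higher and 8 lower, beside 16% and 23.2% of all genes. Of the 15, 2 reached 10 CPM only in the mature dendritic cells and 5 only in the others, which fixed the direction of their ratios. Gpr183, an oxysterol receptor that positions dendritic cells in lymphoid tissue, was at 149 against 44.0 CPM, and B cells stood above both at 199 CPM. As a mean of per-cell CPM its log2 ratio to other coculture cells was 0.65 in place of 1.76. Ccrl2, a receptor that binds chemerin, was at 27.9 against 11.1 CPM. The lower genes included Ccr2, the receptor that brings monocytes from blood (17.0 against 49.4 CPM, and 2.42 without the mixed barcodes), Cxcr2, a neutrophil receptor (23.1 against 91.9 CPM, and 3.22 without them), and S1pr4, a sphingosine 1-phosphate receptor (2 UMIs in all).

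Costimulation genes were high as a list. Of 25 genes 18 were compared, 12 at least 2-fold higher and 3 lower, with a median log2 ratio of 2.35 beside -0.15 for all genes. Of the 18, 6 reached 10 CPM only in the mature dendritic cells and 2 only in the others. Cd80, a ligand of CD28, was at 67.9 against 4.06 CPM (log2 4.07, interval 3.66 to 4.47), with a UMI in 65 cells. Its partner ligand Cd86 was at 281 against 30.5 CPM (log2 3.21), with a UMI in 147 cells. Cd40, which receives the CD40L signal from T cells, was at 50.3 against 6.88 CPM, close to the 46.9 CPM of the B cells. The ligand OX40L (Tnfsf4, 20 UMIs, log2 4.38), the receptor RANK (Tnfrsf11a, log2 4.80), the homotypic receptor Slamf1 (log2 3.95) and the adhesion ligand Icam1 (log2 3.03) were also among the higher genes. Tnfrsf9, the receptor 4-1BB, reached 804 CPM against 187 CPM. Cd83, a surface mark of mature dendritic cells, was at 378 CPM, above other coculture cells at 102 and below B cells at 715 CPM. The 3 lower genes were Cd24a (55.0 against 512 CPM), Vcam1 (5 UMIs) and Tnfsf14 (3 UMIs).

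Genes that restrain T cells or myeloid cells were split: of 30 listed 20 were compared, 7 at least 2-fold higher and 8 lower, with a median of -0.49. Of the 20, 3 reached 10 CPM only in the mature dendritic cells and 5 only in the others, which fixed the direction of their ratios. Cd274, which encodes PD-L1, was at 434 against 51.1 CPM (log2 3.09, interval 2.95 to 3.22), with a UMI in 173 cells. Pdcd1lg2, which encodes PD-L2, was at 99.2 against 17.7 CPM. Cd200, a ligand for an inhibitory myeloid receptor, was at 137 against 6.01 CPM. Many barcodes held both a stimulating and a restraining ligand. A UMI of Cd86 was found in 135 of the 173 cells with one of Cd274 (78.0%) and in 63.2% of the cells without. The cells without Cd274 were shallower, with a median of 5004 UMIs against 7058, and a link between the genes was not tested. Il4i1, an amino acid oxidase, was at 1189 against 111 CPM and Socs2, a feedback inhibitor of cytokine signals, at 491 against 46.3 CPM. The B cells also had Il4i1, at 676 CPM. In a list of tolerance and retinoid genes 6 of 13 compared were at least 2-fold higher and 3 lower. Among enzymes linked to suppression, Ido1 had 14 UMIs in 13 cells, Nos2 had 2 UMIs and Aldh1a2 had 4. Arg1 was at 297 against 709 CPM with its UMIs in 13 cells, and at 5.64 CPM without the 14 mixed barcodes. Il10 had 1 UMI.

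**Figure D3:**
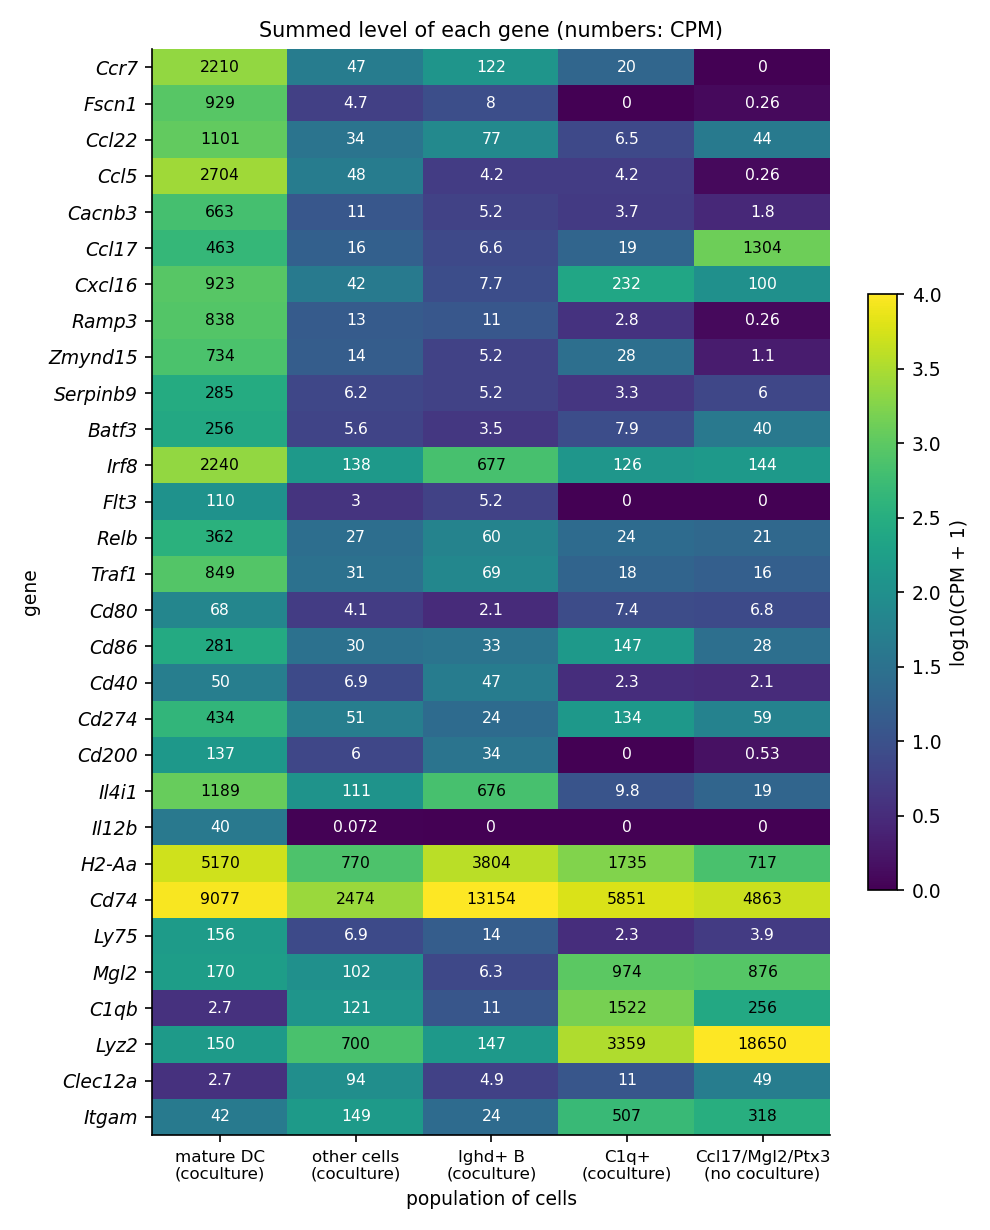
Level of 30 genes (rows) in 5 populations (columns) as log10 of CPM plus 1, with the CPM printed in each field. The first 5 rows are the given markers, of which Ccr7 and Fscn1 chose the mature dendritic cells; Ccl5 was at 2704 CPM there and at most 47.5 CPM in the other 4 columns.

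Among cytokines, Il12b, the p40 chain of interleukins 12 and 23, was held almost wholly by these cells. The 192 cells had 59 UMIs in 29 cells (40.1 CPM, at most 10 in 1 cell), which was 96.7% of the Il12b UMIs of the coculture. Other coculture cells stood at 0.0724 CPM (log2 ratio interval 7.20 to 12.19), and B cells, C1q-positive cells and the library without coculture had 0 UMIs. The partner chain Il12a had 4 UMIs in 2 cells, against 31.3 CPM in other cells. Il15, which sustains NK and memory T cells, was at 28.5 against 5.11 CPM, and Il18bp, a decoy that binds interleukin 18, at 40.8 against 4.49 CPM. In the whole list 16 of 32 cytokines were compared, 4 at least 2-fold higher and 6 lower. Without the 14 mixed barcodes these counts were 3 and 10, and Il1b, the inflammatory interleukin 1 beta, went from log2 1.05 to 0.96. With all 192 cells, 3 of the 16 reached 10 CPM only in the mature dendritic cells and 3 only in the others, which fixed the direction of their ratios.

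Of 41 listed cytokine receptors and feedback genes 37 were compared, 14 at least 2-fold higher and 7 lower. Of the 37, 3 reached 10 CPM only in the mature dendritic cells and 4 only in the others, which fixed the direction of their ratios. Il7r, a receptor chain for interleukin 7 and TSLP, was at 349 against 28.8 CPM with a UMI in 161 cells. Il15ra, which holds interleukin 15 at the surface, was at 93.8 against 12.4 CPM, and Il6st, the shared chain gp130, at 137 against 14.2 CPM. Kit, the stem cell factor receptor, was at 70.7 against 7.10 CPM. Csf2rb, the beta chain that relays GM-CSF, was at 1359.6 against 488 CPM, while the alpha chain Csf2ra was at 53.0 against 77.6 CPM. Csf1r, the macrophage growth factor receptor, was at 31.9 CPM (7.25 without mixed barcodes) against 67.6 CPM, and Csf3r, the neutrophil growth factor receptor, had 6 UMIs.

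Class II presentation was high against the mixture of other cells and not against B cells. Of 18 genes compared with other coculture cells 8 were at least 2-fold higher and 1 lower. H2-Aa, a class II alpha chain, was at 5170.1 against 770.1 CPM (log2 2.75, interval 2.71 to 2.79), and H2-Eb1, a beta chain, at 3210.5 against 538 CPM. Ciita, the activator of class II genes, was at 136 against 30.2 CPM, and Cd74, the invariant chain, at 9077 against 2474 CPM. When each cell weighed the same, as a mean of per-cell CPM, 3 genes were at least 2-fold higher and 3 lower, with Cd74 at a log2 ratio of 0.71 and Ciita at 0.83. B cells, which were 697 of the 2813 other cells, stood at 3804.5 CPM for H2-Aa, 13154 for Cd74 and 189.5 for Ciita. Against the B cells 8823 genes were compared, of which 1583 (17.9%) were higher by 2-fold or more in the mature dendritic cells and 1801 (20.4%) lower. There 1 of 19 class II genes was higher and 5 were lower. March1, a ligase that takes class II off the surface, had 2 UMIs in the 192 cells, against 15.4 CPM in other coculture cells and 45.5 CPM in B cells.

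For class I, 14 of 25 genes compared with other coculture cells were at least 2-fold higher and 3 lower, with a median log2 ratio of 1.15. B2m, the light chain, was at 2021 against 618 CPM. H2-Q7 and H2-Q4, non-classical heavy chains whose family members are near copies and could share reads, were at 463 against 116 and 194 against 24.9 CPM. Tap1, part of the peptide transporter, was at 164 against 56.7 CPM and Psmb9, an immunoproteasome subunit, at 340.4 against 114 CPM. The 3 lower genes were chaperones of the endoplasmic reticulum: Calr at 304 against 2085 CPM, Pdia3 and Canx. The last 2 were short of 2-fold as means of per-cell CPM (log2 -0.96 and -0.74).

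The NF-kappaB list was high along its length. All 34 genes were compared, 25 were at least 2-fold higher and 1 (Ikbke, 9 UMIs) was lower, with a median log2 ratio of 1.40. Weighting cells equally, 19 were higher and 3 lower, with a median of 1.15. Traf1, an adaptor of TNF receptors, was at 849 against 30.6 CPM (log2 4.79) and had a UMI in 189 cells. In the slow branch, Map3k14, the kinase NIK, was at 414 against 18.4 CPM, Relb at 362 against 26.7 CPM and Nfkb2, the p100 precursor of p52, at 137 against 24.3 CPM. In the fast branch, Rel was at 391 against 45.0 CPM, whereas Rela was at 76.1 against 37.6 CPM, close to 2-fold (log2 1.02). Inhibitors were high as well: Nfkbia, which encodes IkappaB-alpha, was at 1510.5 against 228 CPM with a UMI in 190 cells, and Tnfaip3, which encodes A20, at 60.5 against 12.6 CPM. Birc2, a ubiquitin ligase of the TNF receptor complex, was at 423 against 37.4 CPM and Malt1, a protease that activates the pathway, at 271 against 18.6 CPM.

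The promoters of 4 of these genes are shown since they hold an NF-kappaB motif close to the start of a gene that was high in the 192 cells. The sequences are from RefSeq (GRCm38.p6), 250 bases before the start, read on the strand of the gene, with matches to a 10-letter motif on either strand in capitals. The motif is GGG, any 2 bases and then TTTCC.
Nfkbia (chr12:55492648-55492897, minus strand): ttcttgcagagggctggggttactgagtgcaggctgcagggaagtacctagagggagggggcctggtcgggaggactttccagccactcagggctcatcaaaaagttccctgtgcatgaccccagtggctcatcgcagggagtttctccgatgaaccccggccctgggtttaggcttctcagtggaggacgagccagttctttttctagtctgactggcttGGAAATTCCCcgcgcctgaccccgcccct
Rel (chr11:23770970-23771219, minus strand): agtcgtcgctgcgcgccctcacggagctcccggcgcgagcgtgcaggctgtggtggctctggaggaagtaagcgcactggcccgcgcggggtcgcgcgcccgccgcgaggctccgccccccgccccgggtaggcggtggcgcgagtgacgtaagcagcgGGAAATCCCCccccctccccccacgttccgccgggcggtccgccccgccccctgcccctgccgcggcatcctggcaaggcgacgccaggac
Tnfaip3 (chr10:19015411-19015660, minus strand): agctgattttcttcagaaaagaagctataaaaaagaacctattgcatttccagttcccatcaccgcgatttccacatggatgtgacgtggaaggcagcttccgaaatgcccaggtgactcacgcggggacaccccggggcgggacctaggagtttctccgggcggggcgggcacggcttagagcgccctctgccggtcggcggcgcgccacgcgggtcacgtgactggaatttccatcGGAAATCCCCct
Nfkb2 (chr19:46304487-46304736, plus strand): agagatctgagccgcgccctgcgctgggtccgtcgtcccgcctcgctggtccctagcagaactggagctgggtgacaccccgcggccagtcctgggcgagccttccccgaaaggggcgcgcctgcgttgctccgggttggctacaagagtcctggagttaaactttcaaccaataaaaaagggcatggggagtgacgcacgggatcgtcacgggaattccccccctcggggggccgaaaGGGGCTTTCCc
The match began 29 bases before the start in Nfkbia, 91 in Rel, 12 in Tnfaip3 and 11 in Nfkb2, for which the first of 3 starts is shown. Of the 34 listed genes 26 had a promoter in the table, which runs 250 bases before to 50 after the start, and 7 of these 26 (26.9%) held the motif: Cyld, Nfkb2, Nfkbia, Rel, Tnfaip3, Traf2 and Traf3. Among all genes with a promoter there, 512 of 27025 genes (1.89%) held it. None of the 3 given markers with a promoter there, and none of 20 among the 25 genes with the highest ratios (of those at 100 CPM or more), held these letters in that window. A match describes letters and says nothing of binding in these cells.

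Transcription factors of dendritic cell fate were high more often than low, with 27 of 49 compared at least 2-fold higher and 8 lower, beside 16% and 23.2% of all genes. Of the 49, 8 reached 10 CPM only in the mature dendritic cells and 4 only in the others, which fixed the direction of their ratios. Irf8, which drives type 1 and plasmacytoid fates, was at 2240.2 against 138 CPM (log2 4.02) and had a UMI in 189 cells. Batf3, its partner in type 1 cells, was at 256 against 5.58 CPM (log2 5.52), and Id2, an inhibitor of helix-loop-helix factors, at 1427 against 104 CPM. The B cells also had Irf8, at 677 CPM, but had Batf3 at 3.50 CPM and Id2 at 46.9 CPM. Nr4a3, a nuclear receptor linked to dendritic cell migration, was at 79.5 against 2.72 CPM, Nr4a2 at 157 against 6.70 CPM, and Nr4a1 had 0 UMIs. Stat4, which signals for interleukin 12, was at 228 against 13.2 CPM and Etv3, an Ets-family repressor, at 463 against 30.9 CPM. Irf4, a factor of type 2 dendritic cells and of migration, was at 21.7 against 14.3 CPM (log2 0.61). Klf2, which keeps lymphocytes and monocytes quiescent, had 14 UMIs (9.51 against 149 CPM).

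**Figure D4:**
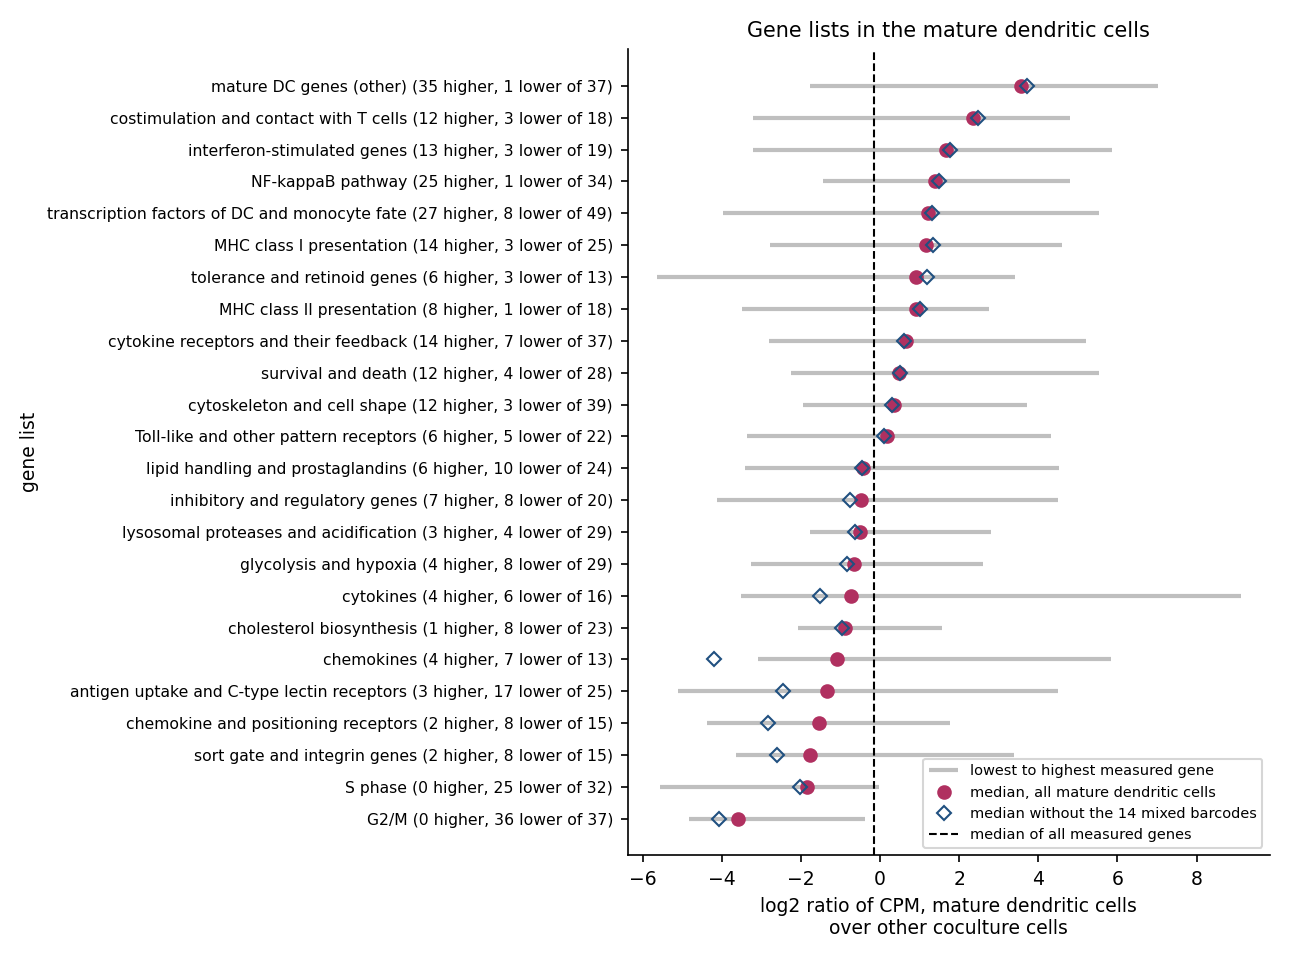
Log2 ratio of the CPM of mature dendritic cells over other coculture cells for each gene list (rows): grey lines run from the lowest to the highest gene compared, filled points are the median over all 192 cells and open diamonds the median without the mixed barcodes. The further mature dendritic cell genes have a median of 3.55, NF-kappaB 1.40 and G2/M -3.60, beside -0.15 for all genes (dashed line).

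Of 38 further genes listed for mature dendritic cells 37 were compared, 35 at least 2-fold higher and 1 lower. Of the 37, 11 reached 10 CPM only in the mature dendritic cells, which fixed the direction of their ratios. This list was drawn up with results of these data known, so its direction is no independent evidence. Epsti1, an interferon-inducible gene, was at 467 against 19.2 CPM. The lower gene was Cd63, a tetraspanin of late endosomes and granules, at 505 against 1712 CPM. Among genes at 100 CPM or more in the mature dendritic cells, the highest ratio was that of Fxyd2, a regulator of the sodium pump, at 181 against 2.57 CPM (log2 6.14). Pdlim4, a LIM protein that binds actin partners, followed at 247 against 3.80 CPM. Ramp3, which modifies the calcitonin receptor-like receptor, was at 838 against 13.3 CPM and was found in 181 cells, with up to 27 UMIs. These genes were concentrated here: the 192 cells had 5.06% of the coculture UMIs, but 79.0% of Fxyd2, 77.6% of Pdlim4, 77.1% of Ramp3, 76.2% of Cacnb3, 75.2% of Ccl5 and 82.6% of Tmem150c, a transmembrane protein gene with 95 UMIs. Among genes at 100 CPM or more in the other cells, the lowest ratios were those of B cell and granule genes, such as Ly6d (1 UMI against 249.6 CPM), Igkc, Prg2 (118 against 19854 CPM) and Epx. The B cell genes among them are no independent evidence, as the rule limits the Cd79 genes.

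Survival genes were led by serpins. Of 28 compared 12 were at least 2-fold higher and 4 lower. Serpinb9, an inhibitor of granzyme B, was at 285 against 6.16 CPM (log2 5.53) and Serpinb6b at 501 against 14.2 CPM (log2 5.14). Bcl2a1b, an anti-apoptotic relative of Bcl2, was at 1579.8 against 149 CPM. Its near-identical copies Bcl2a1d and Bcl2a1a, which could share reads with it, had log2 ratios of 3.62 and 2.87. Bcl2 itself was at 10.9 against 49.8 CPM, and at 5.64 CPM without the mixed barcodes. The pro-apoptotic genes Bcl2l11, which encodes Bim, and Pmaip1, which encodes Noxa, were also higher, at 141 against 24.7 and 164 against 15.4 CPM.

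Genes of antigen uptake were low as a list. Of 25 compared 3 were at least 2-fold higher and 17 lower, with a median log2 ratio of -1.35 (-2.45 without the 14 mixed barcodes). Of the 25, 8 reached 10 CPM only in the other cells and 2 only in the mature dendritic cells. The 3 were Ly75, Clec2d and Cd36. Ly75, the receptor DEC-205, was at 156 against 6.88 CPM (log2 4.51) in 103 cells. Clec2d, a ligand of an NK cell receptor, was at 156 against 56.9 CPM, and at a log2 ratio of 0.70 as a mean of per-cell CPM. Cd36, a scavenger receptor, was at 12.9 against 2.46 CPM in 13 cells. Clec12a, an inhibitory lectin, had 4 UMIs (2.72 against 93.9 CPM), and Clec4n, which encodes Dectin-2, was at 95.1 against 242 CPM, and at 40.3 CPM without the mixed barcodes. The Fc receptor Fcgr3 was at 101 against 592 CPM, and at 17.7 CPM without the mixed barcodes. Of 22 pattern receptor genes compared 6 were at least 2-fold higher and 5 lower, beside 16% and 23.2% of all genes. Of the 22, 6 reached 10 CPM only in the mature dendritic cells and 5 only in the others, which fixed the direction of their ratios. Tlr4 and Tlr2, sensors of bacterial lipids, had 9 and 14 UMIs. Nod2, a sensor of cell wall peptide, had 28 UMIs (19.0 against 2.46 CPM). Cd14 was at 132.5 CPM, but its UMIs were in 10 cells and it was at 4.03 CPM without the mixed barcodes.

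Interferon-stimulated genes were high in part. Of 40 listed 19 were compared, 13 at least 2-fold higher and 3 lower, with a median log2 ratio of 1.66, and 9 and 4 when cells weighed the same. Of the 19, 8 reached 10 CPM only in the mature dendritic cells and 3 only in the others, which fixed the direction of their ratios. Bst2, which encodes tetherin, was at 1239 against 161 CPM, Mx1, an antiviral GTPase, at 91.7 against 2.43 CPM, and Gbp2 and Gbp5, guanylate-binding proteins, at 95.8 against 8.36 and 51.6 against 2.50 CPM. Other classic members were near 0: Ifit3, Ifit2 and Oas1a had 0 UMIs, and Isg15 was at 13.6 against 10.3 CPM.

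Among cytoskeletal genes, 12 of 39 compared were at least 2-fold higher and 3 lower, with Fscn1 left out as a gene of the rule. Marcks, which ties actin to the membrane, was at 1059 against 80.1 CPM (log2 3.72), and Myo1g, a myosin of the cell membrane, at 374 against 52.4 CPM. Actg1 and Actb, the actins, had smaller ratios of 1.64 and 1.43 on the log2 scale. Rac2, a GTPase of blood cells, was lower at 149 against 516 CPM, and at 95.9 CPM without the mixed barcodes. In the list of sort gate and integrin genes 2 of 15 compared were at least 2-fold higher and 8 lower. Of the genes behind the sort, Itgam, which encodes CD11b, was at 42.1 against 149 CPM and at 6.44 CPM without the mixed barcodes, and Ly6c2 had 13 UMIs. Ly6c2 has a near copy, Ly6c1, so its reads may be shared. Itga4, an integrin chain that binds Vcam1, was at 219 against 21.0 CPM in 128 cells.

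The metabolic lists differed in their counts, which are read beside the 16% of all genes that were higher and the 23.2% that were lower. In lipid handling 6 of 24 compared were at least 2-fold higher and 10 lower: Fabp5, a fatty acid carrier, was at 1651 against 211 CPM and Ltc4s, leukotriene C4 synthase, at 448 against 45.2 CPM. The prostaglandin E2 receptor Ptger4 was at 89.7 against 7.75 CPM, and Lta4h, which makes leukotriene B4, was lower at 16.3 against 174 CPM. In cholesterol synthesis 1 of 23 was higher (Pmvk, 397 against 134 CPM) and 8 were lower, among them Fdps, farnesyl diphosphate synthase, at 70.0 against 293 CPM. In glycolysis and hypoxia 4 of 29 were higher and 8 lower. Pfkfb3, which speeds glycolysis, was at 236 against 38.9 CPM and Vegfa, the vascular growth factor, at 347 against 122 CPM. Of 29 lysosomal genes 3 were higher and 4 lower, and 5 and 9 without the mixed barcodes. Ass1, an enzyme of arginine synthesis, was at 212 against 29.8 CPM.

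Cell cycle genes were low. Of 37 G2/M genes compared 0 were at least 2-fold higher and 36 lower, and of 32 S phase genes 0 and 25, beside 16% and 23.2% of all genes. Only the other cells reached 10 CPM for 26 of the G2/M and 12 of the S phase genes, which fixed the direction of those ratios. The G2/M list summed to 642 CPM in the mature dendritic cells, 3870 CPM in other coculture cells, 2131 CPM in B cells and 1634 CPM in C1q-positive cells. Only 2 of the 192 cells had 20 or more G2/M UMIs, against 704 of the 2813 others. Mki67, a marker of cycling cells, was at 19.0 CPM (4.83 without the mixed barcodes) against 177 CPM.

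Set beside the B cells alone, the mature dendritic cells were closer in class II genes than in chemokines. The B cells were defined by Ighd and the Cd79 genes, so those are no finding. Ccl5 had the highest ratio (log2 9.33, interval 8.53 to 10.29), and Ccl22 and Cxcl16 were at 76.6 and 7.69 CPM in the B cells. Ly75 was at 14.3 CPM in the B cells against 156 CPM, and Clu, the secreted chaperone clusterin, at 1.05 against 225 CPM. In the NF-kappaB list 15 of 33 were at least 2-fold higher than in B cells and 2 lower, and in costimulation 11 of 17 and 2. Of these 17, 4 reached 10 CPM only in the mature dendritic cells and 1 only in the B cells, which fixed the direction of their ratios.

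A second comparison was with 106 C1q-positive cells of the same library, defined by at least 3 UMIs of C1qa, C1qb and C1qc together, the complement genes of macrophages. Their median depth was 17326.5 UMIs. Macrophage markers summed to 9043 CPM in them and 504 CPM in the mature dendritic cells. That set includes the 3 complement genes that chose the C1q-positive cells, so its sum is no finding. Markers of other cells stood beside the complement genes: neutrophil markers summed to 18738 CPM and platelet markers to 2851 CPM, beside 2579 and 373 CPM in the mature dendritic cells. The part of these transcripts in the counts that follow was not tested. Of 8532 genes compared 1340 (15.7%) were at least 2-fold higher and 1549 (18.2%) lower in the mature dendritic cells. In antigen uptake 2 of 30 genes were higher and 26 lower, with a median log2 ratio of -2.71 beside -0.04 for all genes. Of the 30, 13 reached 10 CPM only in the C1q-positive cells and 2 only in the mature dendritic cells, which fixed the direction of their ratios. Mgl2, a lectin of macrophages and type 2 dendritic cells, was at 974 CPM there against 169.9, and Ccl24, an eotaxin, at 241 against 2.72 CPM (4 UMIs). In the NF-kappaB list 18 of 34 were higher and 1 lower, and in class I presentation 15 of 25 and 0. Of the 34, 1 reached 10 CPM only in the C1q-positive cells, and of the 25, 3 did so only in the mature dendritic cells. The actin regulator Scin was at 177 CPM against 0.465 CPM (log2 interval 6.08 to 13.88), and Itga4 at 219 against 0.930 CPM.

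In the library without coculture, 3 of 1817 kept cells met the same rule (0.165%, interval 0.034 to 0.482%). They had 19214, 21888 and 19706 UMIs. In the order of these depths, Ccl22 had 32, 92 and 43 UMIs, Ccl5 had 3, 45 and 47, and Cacnb3 had 6, 21 and 10. All 3 thus carried the given markers. Their Ccl17 UMIs were 81, 0 and 100, and none had Mgl2. Over whole libraries Ccr7 went from 4.57 CPM without coculture to 157 CPM with it, Ccl5 from 4.46 to 182, Ramp3 from 0.468 to 55.0 and Cacnb3 from 2.92 to 44.0 CPM. Flt3 had 0 UMIs without coculture and 244 with it. Ccl17 went the other way, from 186 to 38.7 CPM (log2 -2.26, interval -2.36 to -2.17), and Batf3 was at 17.5 and 18.3 CPM. In such sums over cells, fewer cells of a type and less RNA per cell cannot be told apart, and the 2 libraries differ in gate and named medium as well.

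Of the library without coculture, 75 cells were set beside the mature dendritic cells, namely those with 2 or more UMIs of at least 2 of Ccl17, Mgl2 and Ptx3, and these 3 genes are no finding in them. Their macrophage markers summed to 24062 CPM, their dendritic cell markers to 9825 CPM and the 3 given markers outside the rule to 46.0 CPM, beside 504, 27474 and 4468 CPM in the mature dendritic cells. Their median depth was 46650 UMIs. Of 8702 genes compared 1566 (18%) were at least 2-fold higher and 2013 (23.1%) lower in the mature dendritic cells. Of the further mature genes 35 of 37 were higher and 1 lower, in costimulation 10 of 18 and 2, and in the NF-kappaB list 22 of 34 and 2. In these 3 lists 17, 8 and 1 genes reached 10 CPM only in the mature dendritic cells. A further 0, 2 and 1 reached it only in the cells without coculture. This fixed the direction of their ratios. Ramp3 was at 0.263 CPM there (1 UMI, log2 interval 9.16 to 16.94) against 838, Zmynd15 at 1.05 against 734.5, and Stat4 at 0.526 (2 UMIs) against 228 CPM. Prss34 and Mcpt8 also ranked among the highest ratios, and 99.1% of their UMIs lay in the 8 mixed barcodes described above. Genes of macrophages were the other way: Lyz2, lysozyme, was at 18650.0 against 150.2 CPM (12.1 without the mixed barcodes), Lpl, lipoprotein lipase, at 1642 against 20.4, and Wfdc17 at 1633 against 2.72 CPM. In uptake 2 of 29 were higher and 24 lower, and among lysosomal genes 1 of 31 and 24. Of the 29, 12 reached 10 CPM only in the cells without coculture and 1 only in the mature dendritic cells. Of the 31, 2 reached it only in the cells without coculture. This fixed the direction of their ratios. Gpnmb, a glycoprotein of lysosome-rich cells, was at 884 CPM there and 104 CPM in the mature cells, in 50 of which it was found.

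Marker sets for the 2 classical dendritic cell types divided the 192 cells differently with and without 2 of their genes. By summed UMIs, 161 cells had more of the type 1 set, 26 more of the type 2 set, 4 had equal sums and 1 had neither. Irf8 gave 3297 of the 3756 type 1 UMIs and Ccl17 gave 681 of 1517 in type 2. Without these 2 genes the counts were 74, 91, 15 and 12. Few genes again held most of the UMIs: Batf3 gave 377 of the 459 left in type 1, and Il1r2 gave 303 and Mgl2 250 of the 836 left in type 2. The surface markers Xcr1 and Cadm1 of type 1 cells had 1 UMI each and Clec9a had 0. Of the type 2 set, Il1r2 was found in 99 cells, Sirpa in 56 and Cd209a in 0.

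Among the cells, Mgl2 divided the chemokines. The division was picked after seeing the data and is a description. Without the mixed barcodes, 54 cells had a UMI of Mgl2 (median depth 8222 UMIs) and 124 had none (6433.5). Of 2758 genes compared between them, Mgl2 left out, 23 were at least 2-fold higher with Mgl2 and 41 lower. Ccl17 was at 896 CPM with Mgl2 and 322 CPM without (log2 1.48, interval 1.25 to 1.71). Ccl5 was the reverse, at 1643 and 3778 CPM (log2 -1.20, interval -1.32 to -1.09). Ccl22 and Ccr7 were near level, with log2 ratios of -0.15 and -0.02. With Mgl2 stood C3, the complement component (117 and 29.5 CPM), and Tgm2, a transglutaminase (323 and 128 CPM). Without Mgl2 stood Cd200 (67.1 and 194 CPM) and Tpm1, a tropomyosin (64.9 and 209 CPM). Flt3 (73.6 and 145 CPM) fell short of 2-fold, as did Fscn1 (721 and 1248 CPM), a gene of the rule. Irf8 and H2-Aa had log2 ratios of -0.15 and 0.51. Cells with both chemokines were common: 101 of the 192 had a UMI of Ccl5 and of Ccl17, 53 of Ccl5 only, 27 of Ccl17 only and 11 of neither. Of the 57 cells with Mgl2, 52 also had Ccl17, while of the cells without Mgl2, 76 had Ccl17 and 59 did not. A link between the 2 genes was not tested.

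**Figure D5:**
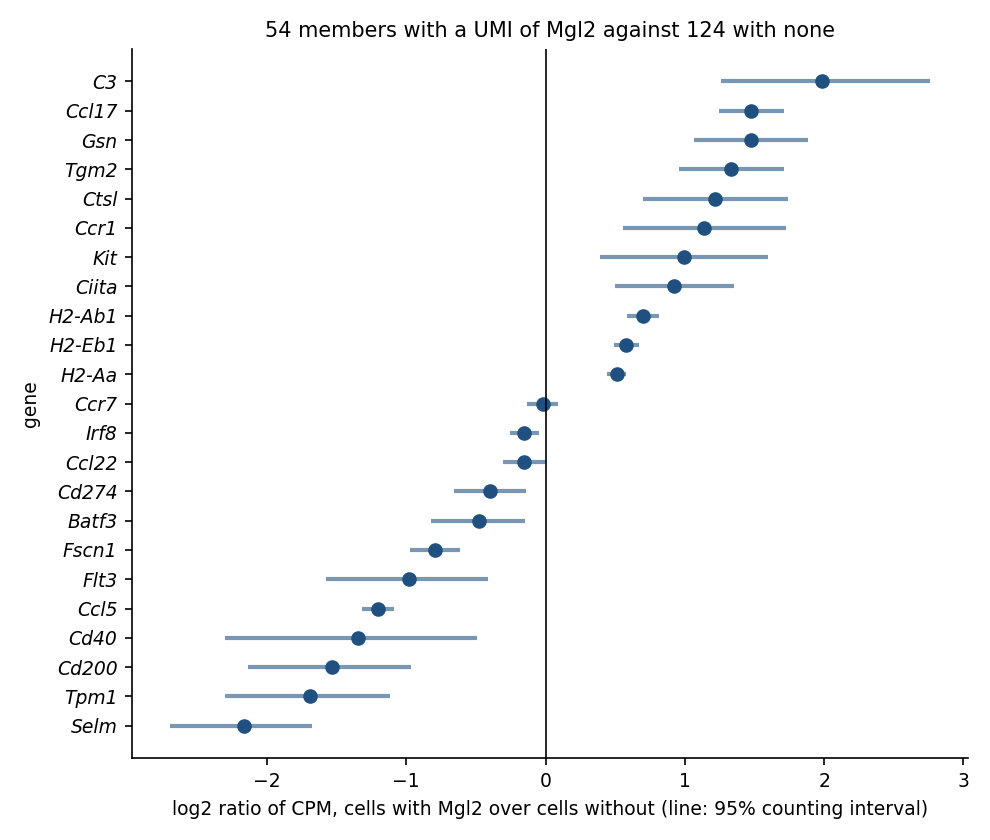
Log2 ratio of CPM in the 54 mature dendritic cells with a UMI of Mgl2 over the 124 without, mixed barcodes left out, for named genes; lines are 95% intervals for counting error. Ccl17 lies at 1.48 and Ccl5 at -1.20.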

How the data were processed

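Droplet single-cell RNA libraries of 1 culture with and 1 without MSC were used. The values are raw UMI counts per gene and barcode as deposited by the authors, in sparse matrices of 47729 genes written by software version 3.1.0 per the file headers. Cell Ranger, bcl2fastq and build mm10 are named in the submitters' processing notes. Which annotation was counted, and how cells were told from empty droplets, is not given in the sources used here. The libraries held 28294186 UMIs in 2180 barcodes without coculture and 29217182 in 3134 with it, and 1817 and 3005 barcodes passed the filters above. No doublet caller was run.

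UMIs were summed over the cells of a population and scaled to CPM, in python 3.11.15 with numpy 2.4.6, scipy 1.17.1 and pandas 2.3.3, with plots in matplotlib 3.10.9. CPM have exact Poisson 95% intervals, ratios exact conditional binomial ones and shares of cells Clopper-Pearson ones, and the ratio code was tested on simulated data. A gene at 0 UMIs takes a floor of 3 UMIs in ratios and medians, which gives a bound on the size of its ratio. Positions are from GENCODE M21, which held 47224 of the gene IDs, and 823 of 827 listed genes were in the files.

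The cells and the gene lists were chosen with earlier results of these data known. Named genes were the given markers, up to 4 highest and 3 lowest of each of 25 lists, the 25 highest and 10 lowest against other coculture cells, the 10 highest and 10 lowest against each compared population, the 15 genes whose coculture UMIs lay most in the 192 cells, and the 10 with most cells at 0 (ranks outside the lists took genes at 100 CPM or more, or 100 UMIs for the share in the 192 cells). Further genes were named for their role, after their values were seen. Splits by 4 genes (Mgl2, Ccl17, Ccl5 and Il12b) and principal components were looked at. The Mgl2 split and the 10-UMI limit for mixed barcodes were chosen after seeing values. Alternatives changed the rule, the filters, the CPM minimum, the weighting of cells, the depth and the scaling (TMM factors of edgeR 4.0.16 in R 4.3.3). 1 gene of the lists is counted in them but not reported by name here.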

Additional observations from a re-analysis of the deposited data

How the results depend on the processing

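No paired analysis was possible because each group has 1 library, so no replicate could be left out either. The rule found 242 cells at 1 UMI of each gene, 159 at 3 UMIs, 197 with no limit on the Cd79 genes and 179 with stricter barcode filters. A minimum of 50 CPM gave 689 higher and 814 lower genes against other coculture cells, 734 and 639 against B cells, 586 and 634 against C1q-positive cells, and 707 and 865 against the cells without coculture. With at least 10 UMIs and no CPM minimum, 3520 were higher and 3165 lower than in other coculture cells. Without Irf8 and Ccl17, 74 cells had more type 1 and 91 more type 2 UMIs. Of 213 named genes past 2-fold, 21 fell short of it with cells thinned to 2000 UMIs and 9 as means of per-cell CPM. At most 1 did so under each other setting, Il1b (log2 0.96) without the mixed barcodes. Ptx3 (log2 0.82) and Fcrls (log2 0.49) changed sign when thinned, since the mature cells have 0 UMIs and take the 3-UMI floor. The number of UMIs limits the precision for genes near 10 CPM.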

Other observations

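Several genes were carried by few of the 192 cells. Apol7c, an apolipoprotein L family gene, had 69 UMIs in 24 cells, and the 19 richest cells held 92.8% of them. Clu was found in 80 cells and Scin in 65, with 64.3% and 69.6% of their UMIs in the 19 richest. Fabp4, a fatty acid carrier, had 60 UMIs in 6 cells, against 175 cells for its relative Fabp5. Of the 29 cells with Il12b, 27 also had Ccl5 (93.1%), beside 77.9% of the cells without Il12b.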
